A study of Mus musculus with 8 samples.

Results

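Chromatin remodelling genes were compared between haematopoietic stem cell (HSC)-enriched and Lin+ cells of adult mouse bone marrow. The members were all genes of the table whose mouse symbol starts with Smarc, Arid, Chd, Ino80, Brd, Baz, Mbd, Mta or Actl6, with a digit after Arid, Chd, Brd, Baz, Mbd and Mta, and they numbered 64 of 24011 named genes. The rule rests on names and uses no measured value, though the choice was made with earlier results of these data known. All cells came from adult C57Bl6 mice without any stated mutation or treatment. The 4 Lin+ samples hold sorted cells that carry surface markers of mature blood lineages. The 4 HSC-enriched samples are LSK cells, which lack mature lineage markers and carry Sca-1 and Kit, that were positive for CD105 and negative for CD48 by the sample labels, whereas the series' design text names CD150 in the place of CD105. Total RNA of the sorted cells was amplified, labelled with biotin and measured on Affymetrix MouseGene ST arrays, 1 array for each sample. Nothing in the labels ties the samples to different animals, so the p-values reflect variation among these 8 samples, which may be technical.

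Remodellers of the SNF2 type are ATP-driven motors that slide, evict or exchange nucleosomes, and they open or close DNA to transcription factors, polymerases and repair enzymes. Most work inside large complexes: BAF (also called SWI/SNF), ISWI, NuRD and INO80 each combine an ATPase with partner subunits. In several positions a cell can choose between closely related subunits encoded by different genes, as with the ATPases Smarca4 (BRG1) and Smarca2 (BRM) of BAF. Bromodomain proteins read acetylated histones, MBD proteins include readers of methylated DNA, and ARID proteins bind DNA. Several BAF and NuRD subunits, Smarca4 and Chd4 among them, are known to be needed for normal blood formation in mice.

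Values are log2 levels, and each difference is the HSC-enriched mean minus the Lin+ mean, so that 1 means a 2-fold difference. The test throughout is limma with Benjamini-Hochberg adjustment over all 24011 genes, with a threshold of 0.05 on the adjusted p. Array medians ran from 5.22 to 5.33, and correlations across genes within a group from 0.978 to 0.986. As a guide to background, the 95th percentile of 1091 olfactory receptor genes was 5.11, and 6 of the 64 members lay under it in both groups. Marker lists followed the sort: all 14 measured HSC genes were higher in HSC-enriched cells, and their mean level was 8.71 to 8.83 there against 5.31 to 5.45 on Lin+ arrays. All measured genes of B cells (9), T and NK cells (9), erythroid cells (7), monocytes (9) and mitosis (14) were lower, as were 13 of 14 neutrophil genes. The mean of the neutrophil list was 6.75, 6.69, 9.04 and 8.83 on HSC-enriched replicates 1 to 4, against 11.30 to 11.61 on Lin+ arrays. Replicates 3 and 4 thus stood apart from replicates 1 and 2 in this list, and replicate 3 also in B cell genes (6.30 against 4.82 to 4.97, and 9.51 to 10.19 on Lin+ arrays). The means were 8.50 to 8.99 on Lin+ and 5.20 to 5.88 on HSC-enriched arrays for monocyte genes, 7.89 to 8.71 and 5.38 to 5.71 for erythroid genes, and 7.54 to 7.85 and 4.62 to 4.98 for T and NK cell genes. On all 4 HSC-enriched arrays, 7 T and NK cell, 2 B cell, 2 erythroid, 1 monocyte and 0 neutrophil genes lay under the olfactory guide. In such bulk samples a lower level may mean fewer cells of a type or less RNA per cell, which cannot be told apart, and the part of cell composition in the differences given here was not tested.

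The leading contrast lay within BAF: Smarca2 was 3.05-fold higher in HSC-enriched cells while its paralog Smarca4 was 1.59-fold lower, and the alternative subunits Smarcd1 and Smarcd2 also went in opposite directions. The 250 bases before the RefSeq start of these 4 genes (build GRCm38.p6, written 5′ to 3′ on the strand of the gene) are given. These genes are the paralogs among the BAF members that were called in opposite directions. Capitals mark 3 motifs, searched on both strands. The first is the box bound by Sp1-type factors, called the GC box, with the letters GGGCGG. The next is the box named for its letters CCAAT. The last is the core of sites for ETS family factors, which reads CGGAAG. None of these motifs contains another, and TATAAA was searched as well but is not capitalised.

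Smarca2, chr19:26604910-26605159, plus strand: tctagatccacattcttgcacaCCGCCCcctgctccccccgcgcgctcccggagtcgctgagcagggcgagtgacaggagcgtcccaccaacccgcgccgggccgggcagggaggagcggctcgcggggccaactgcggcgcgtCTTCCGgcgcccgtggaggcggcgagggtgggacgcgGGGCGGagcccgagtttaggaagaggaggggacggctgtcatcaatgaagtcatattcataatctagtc

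Smarca4, chr9:21615919-21616168, plus strand: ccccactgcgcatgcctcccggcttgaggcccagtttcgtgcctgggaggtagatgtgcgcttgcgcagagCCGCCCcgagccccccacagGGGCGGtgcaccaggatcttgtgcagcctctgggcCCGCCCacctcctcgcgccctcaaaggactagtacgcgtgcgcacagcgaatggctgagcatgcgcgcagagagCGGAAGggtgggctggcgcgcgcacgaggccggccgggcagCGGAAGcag

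Smarcd1, chr15:99702037-99702286, plus strand: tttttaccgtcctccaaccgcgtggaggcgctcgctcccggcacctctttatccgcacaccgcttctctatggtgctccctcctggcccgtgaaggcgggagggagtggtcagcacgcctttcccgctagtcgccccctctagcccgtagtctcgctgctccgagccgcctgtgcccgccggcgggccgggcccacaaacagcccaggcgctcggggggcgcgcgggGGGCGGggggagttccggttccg

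Smarcd2, chr11:106267633-106267882, minus strand: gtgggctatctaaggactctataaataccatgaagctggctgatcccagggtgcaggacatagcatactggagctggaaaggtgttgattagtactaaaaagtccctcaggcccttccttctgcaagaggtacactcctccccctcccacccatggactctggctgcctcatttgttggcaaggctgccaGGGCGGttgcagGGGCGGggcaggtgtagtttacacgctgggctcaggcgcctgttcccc

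Smarca2 had 2 GC boxes and 1 ETS core in this window, Smarca4 3 and 2, Smarcd1 1 and 0, and Smarcd2 2 and 0, while a CCAAT box was found in 0 of the 4. The Smarcd2 window held 4 CpG dinucleotides against 28, 25 and 29 in the Smarca2, Smarca4 and Smarcd1 windows. It alone of these 4 windows held the sequence TATAAA, on 1 of the strands searched. RefSeq windows were matched for 46 of the 64 members (58 windows, since some genes have several starts). GC boxes occurred in 74.1% of them against 32.7% of all 32851 windows, CCAAT boxes in 27.6% against 33.8%, ETS cores in 22.4% against 13.6% and TATAAA in 6.9% against 12.4%. The median CpG count was 20.5 in member windows and 6 in all windows. Among members that were higher, lower and not passing, GC boxes were found in 11 of 15, 6 of 10 and 26 of 33 windows, ETS cores in 3, 2 and 8, CCAAT boxes in 2, 3 and 11, and TATAAA in 0, 3 and 1. Such matches describe the letters of these windows and show no binding.

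In HSC-enriched cells 14 of the 64 members rose, 14 fell and 36 did not pass. The 28 called members make 43.8% of the 64, against 27.8% of all genes called in either direction. All 28 were among the 58 members above the olfactory guide in at least 1 group, and among the 13572 genes of that kind 45.2% were called, 25.3% higher and 19.9% lower. For 14 higher members the share of all genes called higher was 15.5%, and for 14 lower members the share called lower was 12.4%. The median difference was 0.03 over the members and 0.02 over all genes. At least 2-fold differences were found for 2 higher members (Smarca2 and Mta1) and 4 lower ones (Brd8dc, Arid3a, Chd7 and Baz1a), against 4.8% and 6.08% of all genes. The arrays of the groups did not overlap for 18 members higher and 14 lower in HSC-enriched cells, against 15.9% and 13% of all genes. For these 2-fold and overlap counts, the shares of all genes include genes near background. The shares among genes above the guide were not computed for them. Without HSC-enriched replicates 3 and 4, the numbers of higher and lower members were 10 and 13.

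**Figure D1:**
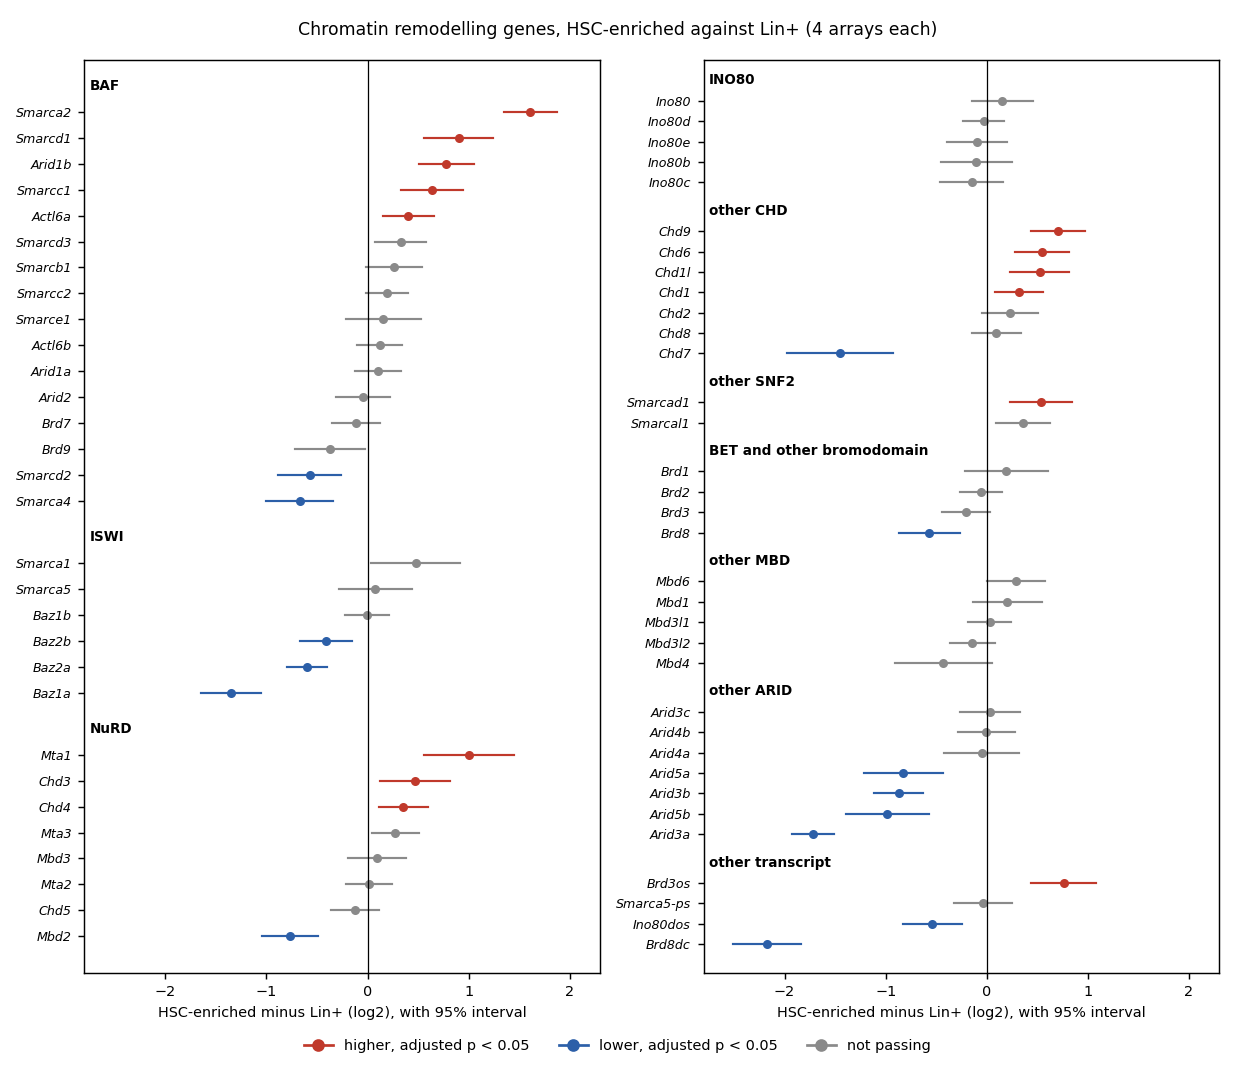
Difference between HSC-enriched and Lin+ means (log2, x axis) with its 95% interval for all 64 members, grouped by complex or family, 4 arrays per group. Colour shows the call at an adjusted p of 0.05. Smarca2 and Mta1 reach at least 2-fold on the right, and Brd8dc, Arid3a, Chd7 and Baz1a on the left.

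Among the ATPases of BAF, Smarca2 was at 7.64, 7.90, 7.80 and 7.71 on Lin+ arrays and at 9.62, 9.37, 9.29 and 9.21 on HSC-enriched arrays, in the order of the replicate numbers. Every HSC-enriched array lay above every Lin+ array, and the difference of 1.61 ± 0.12 (SE; adjusted p = 4.2e-06) was the highest rise of the 64 members and the 415th highest of all genes. Smarca4 was at 10.51, 10.05, 9.80 and 10.14 on Lin+ arrays and at 9.45, 9.49, 9.55 and 9.32 on HSC-enriched arrays. The groups did not overlap here either, and Smarca4 fell by 0.67 (SE 0.15, adjusted p = 0.0058). Within an array, the log2 level of Smarca2 minus that of Smarca4 was -2.87 to -2.0 on Lin+ and -0.27 to 0.16 on HSC-enriched arrays, which makes the ratio of these paralogs 4.86-fold higher in HSC-enriched cells.

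The 3 Smarcd genes encode alternative BAF60 subunits that link the complex to transcription factors, and Smarcd2 is known for its role in granulocyte maturation. Smarcd1 was at 7.59, 7.85, 7.16 and 7.53 on Lin+ and at 8.51, 8.63, 8.34 and 8.24 on HSC-enriched arrays, and rose by 0.90 ± 0.15 (SE; adjusted p = 0.0013). Smarcd2 was at 8.03, 7.78, 7.94 and 8.02 on Lin+ and at 7.48, 7.35, 7.64 and 7.0 on HSC-enriched arrays, and fell by 0.57 (SE 0.14, adjusted p = 0.011). Against a null of a 1.2-fold difference the falls of Smarca4 and Smarcd2 did not pass (adjusted p = 0.055 and 0.127). Neither Smarcd gene showed overlap between the groups, and their ratio was 2.78-fold higher in HSC-enriched cells. Smarcd3, known from heart muscle, differed by 0.33 with an adjusted p of 0.054 and did not pass, though its groups did not overlap. It passed once low genes were filtered out, with an adjusted p of 0.046 for a filter at the 40th percentile and 0.042 for one at the median.

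Other BAF subunits split between higher and not passing. Arid1b, a DNA-binding subunit that takes the place of Arid1a, was 9.04 ± 0.19 in HSC-enriched and 8.26 ± 0.13 in Lin+ cells (SD, n = 4; adjusted p = 0.00076). Arid1a itself differed by 0.10, with a 95% interval of -0.12 to 0.33. The scaffold gene Smarcc1 (BAF155) rose 1.55-fold (adjusted p = 0.0055), whereas its paralog Smarcc2 (BAF170) differed by 0.19 (interval -0.01 to 0.40) and did not pass. Actl6a, an actin-related subunit that BAF shares with INO80 and EP400, rose 1.32-fold (adjusted p = 0.022). That call was lost without Lin+ replicate 2 (adjusted p = 0.052) or 3 (0.061) and without HSC-enriched replicate 1 (0.062), 3 (0.068) or both 3 and 4 (0.097). Actl6b, the neuronal counterpart, stayed near background in both groups. Smarce1, at 10.10, 9.63, 9.45 and 9.99 on Lin+ and 10.24, 9.97, 9.78 and 9.80 on HSC-enriched arrays, overlapped and did not pass. Neither did the core subunit gene Smarcb1 (0.26), nor Arid2 (-0.04) and Brd7 (-0.12) of the PBAF form, nor Brd9 (-0.37) of the non-canonical form. In all, 5 of 16 measured BAF members were higher, 2 lower and 9 not passing, with a median difference of 0.17. Among all genes above the guide 25.3% were higher and 19.9% lower, so these counts lie near the general rate.

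**Figure D2:**
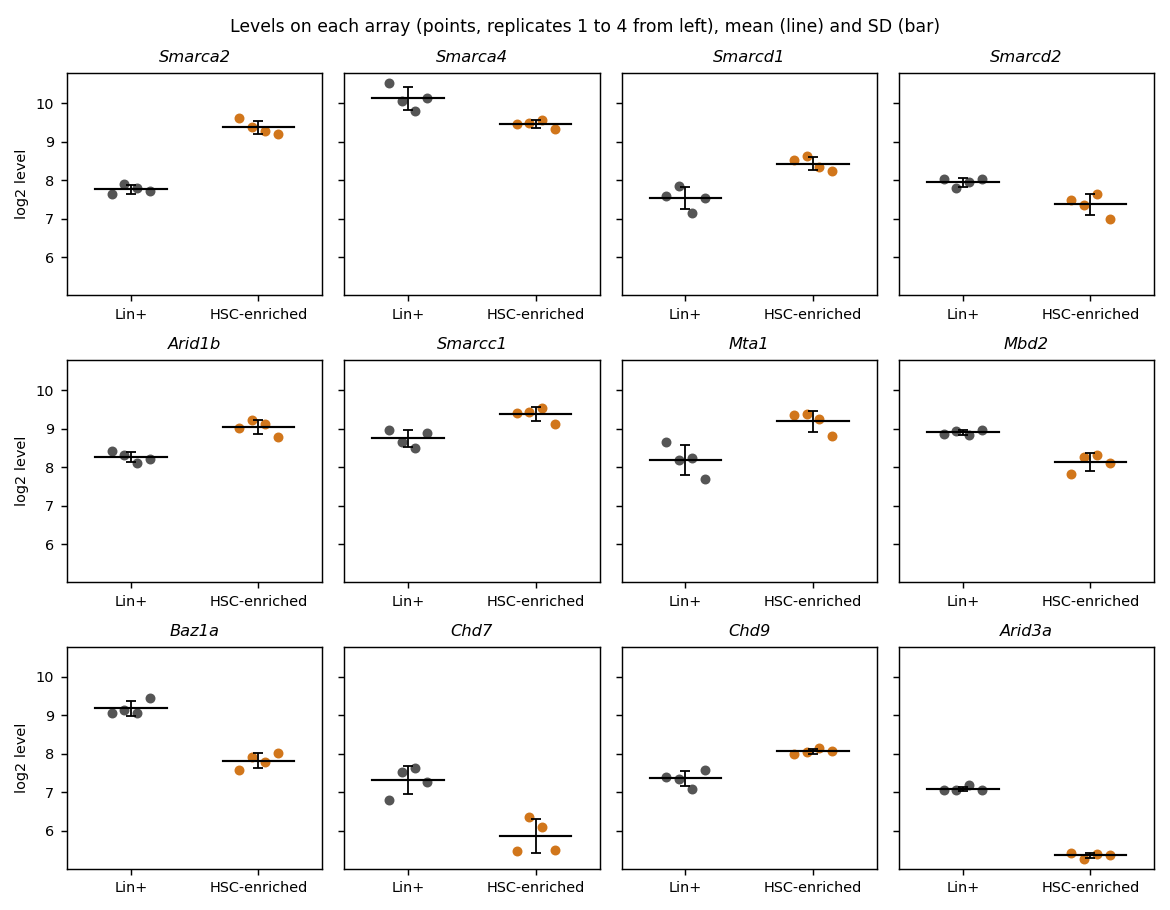
Log2 level (y axis) of 12 members on each of the 4 Lin+ and 4 HSC-enriched arrays, with the mean as a line and the SD as a bar. In each panel the arrays of the groups do not overlap. Smarca2, Smarcd1, Arid1b, Smarcc1, Mta1 and Chd9 are higher and the other panels lower in HSC-enriched cells.

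In the ISWI family the motor genes did not pass while 3 of the 4 genes for BAZ partner subunits fell. Of all genes above the guide 19.9% were lower. Smarca5 (SNF2H), the main ISWI ATPase, differed by 0.07 (interval -0.29 to 0.43), and Smarca1 (SNF2L) lay below the olfactory guide in both groups (2.55 and 3.03). Smarca1 did not pass (adjusted p = 0.111), except without HSC-enriched replicates 3 and 4 (0.78, adjusted p = 0.018), a difference between levels near background. Baz1a (ACF1), which spaces nucleosomes together with Smarca5, was at 9.07, 9.14, 9.05 and 9.46 on Lin+ and at 7.58, 7.92, 7.80 and 8.01 on HSC-enriched arrays. These arrays are separated by more than 1 log2 unit, and Baz1a was 2.56-fold lower (adjusted p = 3.1e-05). Its paralog Baz1b (WSTF) was at 9.68, 9.70, 9.75 and 9.60 on Lin+ and at 9.82, 9.71, 9.59 and 9.61 on HSC-enriched arrays, a difference of -0.002 with an interval of -0.22 to 0.21. The ratio of Baz1a to Baz1b was accordingly 2.55-fold lower. Baz2a, the TIP5 subunit that silences ribosomal RNA genes, fell by 0.60 (SE 0.09, adjusted p = 0.00049) with an SD of 0.05 in Lin+ and 0.04 in HSC-enriched cells. Baz2b fell by 0.41 (adjusted p = 0.021), a call lost without Lin+ replicate 2 (adjusted p = 0.063) or 4 (0.061) and without HSC-enriched replicate 1 (0.054), 2 (0.058) or both 3 and 4 (0.058).

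NuRD couples a CHD ATPase to histone deacetylases through MTA scaffold proteins, and uses Mbd2, which binds methylated DNA, or Mbd3, which binds it only weakly. Mta1 was at 8.64, 8.18, 8.24 and 7.69 on Lin+ and at 9.35, 9.37, 9.25 and 8.79 on HSC-enriched arrays. The lowest HSC-enriched array lay just above the highest Lin+ array, and the 2.0-fold rise had an SE of 0.20 on the log2 scale (adjusted p = 0.0035). Mta2, at 9.20, 9.21, 9.06 and 9.14 on Lin+ and at 9.23, 9.31, 9.06 and 9.05 on HSC-enriched arrays, differed by 0.01 (interval -0.22 to 0.24). Mta3 differed by 0.27 and did not pass (adjusted p = 0.082), although its groups did not overlap, and it passed with array weights (0.0499). Mbd2 was at 8.86, 8.94, 8.84 and 8.97 on Lin+ and at 7.82, 8.27, 8.32 and 8.12 on HSC-enriched arrays, 1.70-fold lower without overlap (adjusted p = 0.00090), whereas Mbd3 differed by 0.09 (interval -0.19 to 0.38).

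The ATPase genes Chd4 and Chd3 were higher by 0.35 (adjusted p = 0.032) and 0.47 (0.046), but both calls were lost in most fits that left out 1 array. The groups overlapped for Chd3, with Lin+ replicate 1 at 7.36 and HSC-enriched replicate 2 at 7.18. Chd4 lost its call without Lin+ replicate 2 (adjusted p = 0.085) or 3 (0.087) and without HSC-enriched replicate 1 (0.078), 2 (0.062), 3 (0.072), 4 (0.0503) or both 3 and 4 (0.114). Chd3 lost it without Lin+ replicate 2 (0.117), 3 (0.123) or 4 (0.088) and without HSC-enriched replicate 1 (0.12), 3 (0.102), 4 (0.080) or both 3 and 4 (0.189). The third ATPase gene, Chd5, known from brain and testis, stayed under the olfactory guide in both groups (4.79 and 4.66). NuRD thus had 3 of 8 members higher, 1 lower and 4 not passing, against 25.3% higher and 19.9% lower of all genes above the guide.

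Among the 7 other CHD genes, Chd7 fell while 4 rose, where 25.3% of all genes above the guide were higher. Chd7, whose human counterpart is mutated in CHARGE syndrome, was at 6.82, 7.52, 7.64 and 7.28 on Lin+ and at 5.48, 6.37, 6.10 and 5.50 on HSC-enriched arrays. It varied more than most members within each group (SD 0.36 and 0.44), yet the groups did not overlap and the gene was 2.73-fold lower (adjusted p = 0.00095). Its relative Chd9 moved the other way, from 7.40, 7.36, 7.09 and 7.59 on Lin+ to 7.99, 8.04, 8.15 and 8.08 on HSC-enriched arrays, a rise of 0.70 ± 0.12 (SE; adjusted p = 0.0013). Chd6 rose 1.46-fold (adjusted p = 0.0061) and Chd1l, a remodeller recruited to DNA damage by poly(ADP-ribose), 1.44-fold (adjusted p = 0.012). The ratio of Chd6 to Chd7 was 3.99-fold higher in HSC-enriched cells. Chd1, a remodeller of transcribed genes, was higher by 0.32 (adjusted p = 0.049). Of the fits that left out 1 array, Chd1 kept its call in that without HSC-enriched replicate 1, while leaving out any of the other 7 arrays gave adjusted p-values of 0.079 to 0.135: 0.080, 0.092, 0.079 and 0.108 for Lin+ replicates 1 to 4, and 0.135, 0.110 and 0.092 for HSC-enriched replicates 2 to 4. The call was also lost with median centring (0.064) and without HSC-enriched replicates 3 and 4 together (0.218). Chd8, a regulator of beta-catenin targets, was at 8.08, 8.06, 8.13 and 8.35 on Lin+ and at 8.34, 8.10, 8.34 and 8.23 on HSC-enriched arrays and did not pass, and neither did Chd2 (0.23).

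The INO80 complex, which shifts nucleosomes and acts on the histone variant H2A.Z, had 0 of 5 members called (limma, and 0 at an unadjusted p under 0.05 as well). Of all genes above the guide 45.2% were called, and a difference of these 5 genes from that share was not tested. Ino80d was at 9.01, 8.85, 8.96 and 8.95 on Lin+ and at 8.88, 8.93, 8.94 and 8.89 on HSC-enriched arrays, and the interval of its difference ran from -0.23 to 0.17. The ATPase gene Ino80 differed by 0.15 (interval -0.14 to 0.45), and Ino80b, Ino80c and Ino80e by -0.10, -0.15 and -0.09. The lowest bound of these 5 intervals was -0.46 and the highest 0.45.

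Of the SNF2 genes that act outside these complexes, Smarcad1, which remodels nucleosomes behind replication forks and at DNA breaks, was at 7.24, 7.26, 6.97 and 7.5 on Lin+ and at 7.59, 7.78, 7.72 and 8.02 on HSC-enriched arrays. It rose by 0.53 ± 0.14 (SE; adjusted p = 0.015) without overlap, and this call did not hold without HSC-enriched replicates 3 and 4 (0.44, adjusted p = 0.102). Smarcal1, an annealing helicase of stalled forks, was at 7.09, 7.40, 7.49 and 7.23 on Lin+ and at 7.81, 7.56, 7.71 and 7.55 on HSC-enriched arrays. Its groups did not overlap and its adjusted p was 0.0503, just short of the threshold, but it passed without Lin+ replicate 3 (0.42, adjusted p = 0.036), with quantile normalization (0.017) and with both filters on low values (0.041 and 0.037).

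Bromodomain and MBD members outside BAF and NuRD mostly did not pass. Brd8, a subunit of the EP400 acetyltransferase complex, was the exception: it was at 8.08, 8.28, 7.80 and 8.33 on Lin+ and at 7.66, 7.58, 7.61 and 7.36 on HSC-enriched arrays, and fell by 0.57 (SE 0.14, adjusted p = 0.0096). Its call was lost without HSC-enriched replicates 3 and 4 (-0.50, adjusted p = 0.073). The BET genes Brd2 and Brd3, readers of acetylated histones, differed by -0.06 and -0.21. Brd2 was nearly level, at 8.64, 8.70, 8.54 and 8.52 on Lin+ and at 8.54, 8.61, 8.52 and 8.53 on HSC-enriched arrays. Brd1, a scaffold of histone acetyltransferases, differed by 0.19 with arrays that overlapped.

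Mbd6 was at 8.31, 8.57, 8.57 and 8.08 on Lin+ and at 8.69, 8.76, 8.58 and 8.66 on HSC-enriched arrays. The groups were separated by a narrow margin and the difference of 0.29 did not pass (adjusted p = 0.130). Mbd4, a glycosylase that removes thymine from G:T mismatches, differed by -0.43 with an HSC-enriched SD of 0.50, since replicate 3 lay at 7.09 against 6.57, 6.10 and 5.98 on replicates 1, 2 and 4. With replicate 3 left out it was called lower (-0.65, adjusted p = 0.012), and likewise without replicates 3 and 4 (-0.53, adjusted p = 0.044). Mbd1, which binds methylated DNA, differed by 0.20 and did not pass, and Mbd3l1 and Mbd3l2 lay far under the olfactory guide in both groups.

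Of the 7 ARID genes outside BAF, 4 were lower and 0 higher, where 19.9% of all genes above the guide were lower and 25.3% higher; no difference between families was tested. These proteins bind DNA through the same kind of domain as Arid1a but are not subunits of a remodelling motor. Arid3a (Bright), first known as an activator of immunoglobulin heavy chain transcription in B cells, was at 7.07, 7.05, 7.18 and 7.07 on Lin+ and at 5.42, 5.28, 5.41 and 5.38 on HSC-enriched arrays. The SD was 0.06 in each group, and Arid3a was 3.29-fold lower (adjusted p = 6.6e-07), the deepest fall among members with a role in the complexes and families above. The B cell marker list was lower as well (9.51 to 10.19 on Lin+ and 4.82 to 6.30 on HSC-enriched arrays), and its part in the fall of Arid3a was not tested.

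Arid3b, its paralog, fell 1.83-fold (adjusted p = 0.00016) from 7.79 ± 0.14 to 6.92 ± 0.11 (SD, n = 4). The ratio of Arid3a to Arid3b was itself 1.80-fold lower. Arid5b, a cofactor of the histone demethylase Phf2 and a known risk gene of childhood acute lymphoblastic leukaemia in humans, was 1.98-fold lower (adjusted p = 0.0023), and Arid5a, which stabilises Il6 messenger RNA, 1.77-fold lower (adjusted p = 0.0050). Both showed no overlap between the groups. The SIN3 complex genes Arid4a and Arid4b differed by -0.05 and -0.01, with Arid4b at 8.42, 8.38, 8.17 and 8.51 on Lin+ and at 8.34, 8.55, 8.47 and 8.10 on HSC-enriched arrays. Arid3c differed by 0.03 at a low level (5.54 and 5.57).

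The remaining 4 members carry a matching symbol without being known parts of the complexes. Brd8dc, a gene next to Brd8 in RefSeq, was at 5.78, 5.88, 5.48 and 5.96 on Lin+ and at 3.33, 3.81, 3.81 and 3.44 on HSC-enriched arrays. Its difference of -2.18 ± 0.15 (SE; adjusted p = 3.2e-06) was the deepest of the 64, with the HSC-enriched mean under the olfactory guide, so the fold rests on a value near background. Brd3os was at 5.07, 5.27, 5.50 and 4.95 on Lin+ and at 6.21, 5.93, 5.79 and 5.92 on HSC-enriched arrays, a rise of 0.76 (SE 0.14, adjusted p = 0.0024), while its neighbour Brd3 did not pass. Conversely, the non-coding Ino80dos fell by 0.54 (adjusted p = 0.011), while its neighbour Ino80d did not pass. How the probe sets treat strand is not given in the sources used here. Smarca5-ps, a pseudogene of Smarca5, lay at 2.17, 2.25, 2.46 and 2.37 on Lin+ and at 2.31, 2.23, 2.54 and 2.02 on HSC-enriched arrays, under the guide on all 8.

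Paralogs that can fill the same place, or are each other's closest relatives, were compared by the log2 level of the first gene minus the second within each array, which shows unequal change and not which gene is more abundant. Of 23 measured pairs, the arrays of the groups did not overlap for 13. Of all single genes, those near background included, 28.9% did not overlap, and the share among ratios of other genes was not computed. The 13 include every ratio among the Smarcd genes and every ratio among the Mta genes. Within each of these families the ratios share genes and are not separate results. Each of the 13 had p = 0.0286 in a two-sided exact permutation test over arrays, the smallest that 4 against 4 allows. Adjusted over the 23 pairs this is 0.0505, so 0 pairs passed at 0.05 after adjustment. Besides the ratios given above, Mta1 rose against Mta2 (1.99-fold) and Mta3 (1.66-fold), and Mta2 was lower against Mta3 (1.2-fold). Smarcd1 was higher against Smarcd3 (1.49-fold) and Smarcd2 lower (1.87-fold). Arid1a was lower against Arid1b (1.59-fold), Mbd2 against Mbd3 (1.82-fold) and Chd8 against Chd9 (1.52-fold). For the other 10 pairs the arrays overlapped, among them Smarcc1 and Smarcc2 (1.36-fold, exact permutation p = 0.0571, adjusted 0.0939) and Chd3 and Chd4 (1.08-fold, exact permutation p = 0.4, adjusted 0.438). Arid5a and Arid5b, which both fell, had a ratio that differed by 0.16 on the log2 scale (exact permutation p = 0.543, adjusted 0.568).

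**Figure D3:**
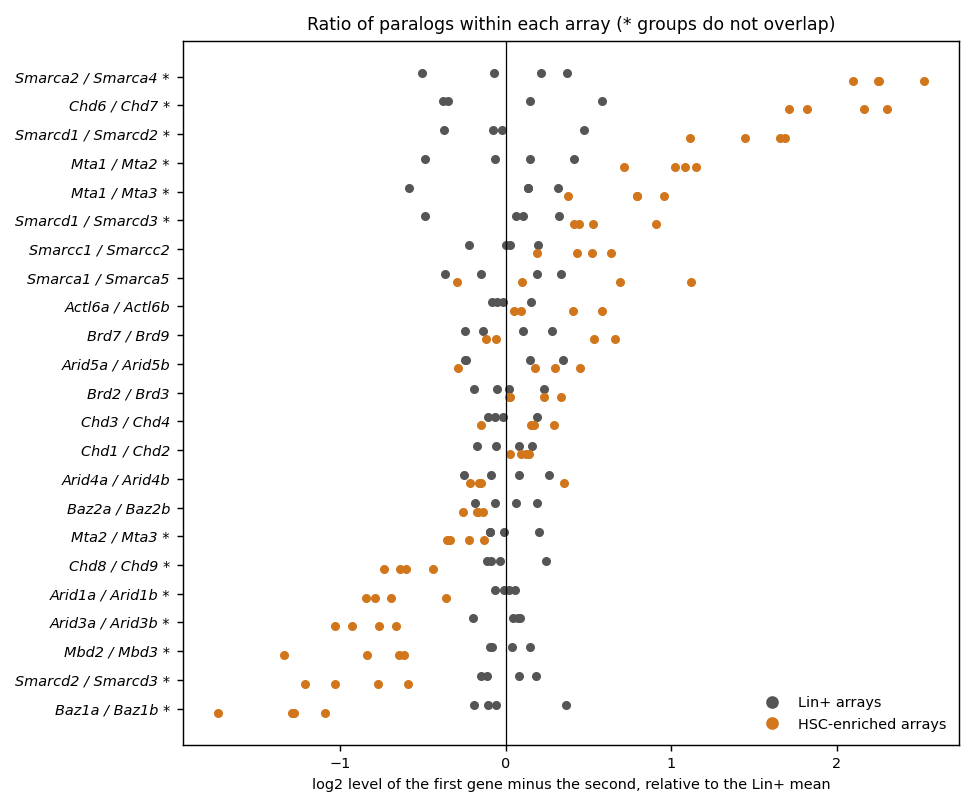
Log2 level of the first paralog minus that of the second on each array, set to 0 at the Lin+ mean of each pair (x axis), for 23 pairs ordered by the HSC-enriched shift. An asterisk marks the 13 pairs whose groups do not overlap, from Smarca2 over Smarca4 at the top (2.28) to Baz1a over Baz1b at the bottom (-1.35).

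Partner genes not caught by the symbol patterns numbered 65 measured genes. They are other subunits of these complexes, proteins that bind to them, and 12 further SNF2-type genes that act outside them. Of these, 15 were higher, 6 lower and 44 not passing, with a median difference of 0.11. The shares were 23.1% higher and 9.2% lower, against 15.5% and 12.4% of all genes. Of genes above the guide in at least 1 group, 25.3% were higher and 19.9% lower. Only 3 partners lay under the guide in both groups. The NuRD list, which holds binding proteins as well as subunits, had 5 of 10 higher and 0 lower. Zfp512b, a NuRD-binding zinc finger protein, was 8.12 ± 0.18 against 6.67 ± 0.14 (SD, n = 4), a 2.73-fold rise (adjusted p = 1.1e-05). Pogz, a heterochromatin-binding protein, rose 1.89-fold (adjusted p = 0.00030). The deacetylase gene Hdac2, the histone chaperone gene Rbbp7 and Adnp, a partner of Chd4, rose by 0.73, 0.85 and 0.61. Hdac1 differed by 0.34 (adjusted p = 0.094). It passed without Lin+ replicate 1 (0.43, adjusted p = 0.035), without HSC-enriched replicate 1 (0.43, adjusted p = 0.038) or with quantile normalization.

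Among partners of ISWI, Cecr2, which forms a complex with Smarca1 or Smarca5, was at 9.38, 9.04, 8.62 and 9.23 on Lin+ and at 4.70, 4.75, 5.58 and 4.61 on HSC-enriched arrays. Cecr2 fell by 4.16 on the log2 scale (SE 0.23, adjusted p = 8.2e-07), the deepest fall of the partners and the 146th deepest of all genes. The HSC-enriched mean of 4.91 lay under the olfactory guide, so the 17.9-fold difference rests on values near background. The highest HSC-enriched array was replicate 3, on which the B cell list was highest too, and their relation was not tested. Chrac1 rose by 0.51 (adjusted p = 0.030), with groups that overlapped. Its call was lost without Lin+ replicate 1 (0.052), 3 (0.082) or 4 (0.075) and without HSC-enriched replicate 1 (0.079) or 2 (0.082), and with median centring (0.053). Bptf, the largest subunit of the NURF form, differed by 0.16 and did not pass.

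Of 14 BAF partners, 2 rose and 3 fell, where 25.3% of all genes above the guide were higher and 19.9% lower. Bcl7a, a BAF subunit first found at a translocation in B cell lymphoma, was at 9.57, 8.76, 8.79 and 8.97 on Lin+ and at 7.88, 7.65, 8.01 and 7.78 on HSC-enriched arrays, 2.28-fold lower (adjusted p = 0.00055). Bicra, a subunit of the non-canonical form, was 1.71-fold lower (adjusted p = 0.0053), and Bcl11b, a T cell transcription factor, fell by 0.68 to a level under the guide. Bcl11a and Ss18 rose by 0.47 (adjusted p = 0.0037) and 0.46 (0.011), the latter not without HSC-enriched replicates 3 and 4 (0.077). Dpf2 differed by 0.37 (adjusted p = 0.103), and was called higher with HSC-enriched replicate 4 left out (0.46, adjusted p = 0.046), without replicates 3 and 4 (0.58, adjusted p = 0.026) and with quantile normalization.

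Partners of INO80, SRCAP and EP400 had 4 of 24 higher and 1 lower, against 25.3% and 19.9% of all genes above the guide. The AAA-type ATPase genes Ruvbl1 and Ruvbl2, shared by these complexes, rose 1.83-fold (adjusted p = 0.00072) and 1.37-fold (0.012), the latter not without HSC-enriched replicates 3 and 4 (0.056). Epc2 and Meaf6 of the acetyltransferase module rose by 0.44 each, and Znhit1 of SRCAP fell 1.61-fold (adjusted p = 0.0034). Uchl5 differed by 0.32 (adjusted p = 0.088), and was called higher with HSC-enriched replicate 4 left out (0.39, adjusted p = 0.042) and with quantile normalization. Further SNF2-type genes were 3 of 12 higher and 1 lower, against the same 25.3% and 19.9%. Ercc6 (CSB, of transcription-coupled repair) rose 1.6-fold, Rad54l2 1.56-fold and Atrx, which deposits a histone variant at heterochromatin, 1.51-fold. Ercc6l (PICH), a helicase of mitotic chromosomes, was 2.27-fold lower (adjusted p = 0.0074). The mean of the 14 mitosis genes was 8.93 to 9.13 on Lin+ and 7.59 to 7.99 on HSC-enriched arrays, and its part in the fall of Ercc6l was not tested. Hells, a remodeller needed for DNA methylation, differed by -0.13 and did not pass.

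**Figure D4:**
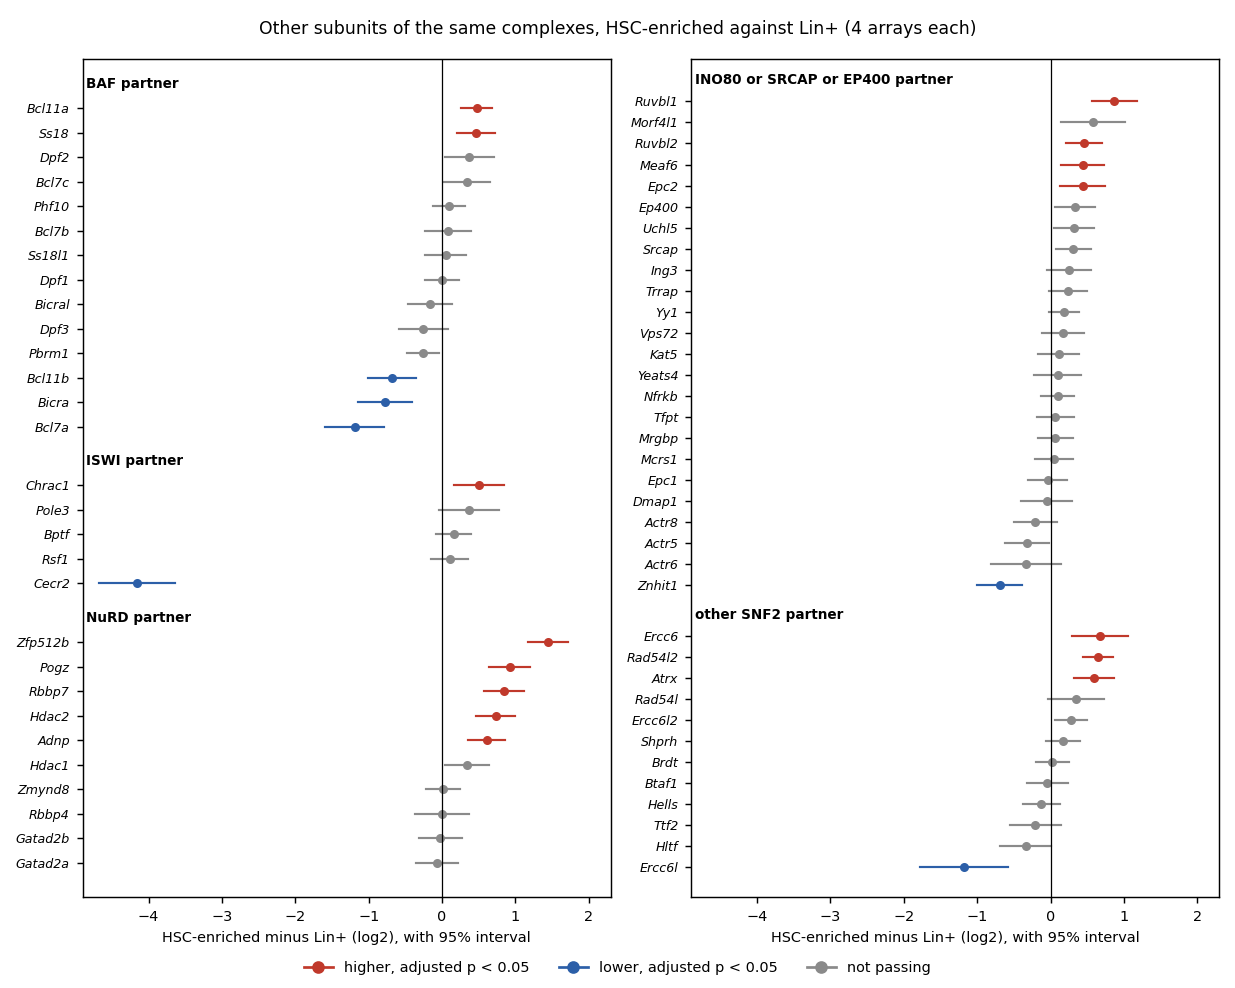
Difference between HSC-enriched and Lin+ means (log2, x axis) with its 95% interval for 65 partner genes, 4 arrays per group. Genes are grouped by complex, with further SNF2-type genes as a group of their own. Cecr2 lies at -4.16, apart from all others, and Zfp512b is the highest at 1.45.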

How the data were processed

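The authors deposited log2 levels of 24973 probe sets for the 8 arrays. The submitters' processing notes name RMA and Partek and give no version. The labels' protocols name MouseGene 1.0 and 2.0 arrays without assigning them to samples, and the genome build, the probe set definition and any pooling are likewise not stated there. That the scale is log2 was taken from the deposited values (1.66 to 13.1).

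Of the probe sets, 24015 had 1 gene symbol in the platform annotation, 0 had several and 958 had none. Symbols were checked by Entrez gene ID against RefSeq (GRCm38.p6) for 23922, and 0 changed. The brightest of several probe sets was kept, which left out 4. Differences were tested with limma 3.58.1 (R 4.3.3; lmFit, eBayes) in a 2-group model without covariates and without a filter. Intervals are at 95%, unadjusted, from limma's moderated standard errors. The number of arrays (4 per group) limits the precision.

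Every member is named. Array values are given for members called with at least a 2-fold difference and, in each role group, for the called member with the highest rise, that with the deepest fall and the uncalled member with the highest level. In each partner group up to 2 called genes in each direction and the uncalled gene with the highest level are named. Array values of Smarcd1, Smarcd2 and Mbd4, those of Arid1b and Smarcc1 in the plot, and the partners Hdac2, Rbbp7, Adnp, Bcl11b, Epc2, Meaf6 and Atrx, were added after their values were seen. Members, lists, pairs and alternatives were chosen with earlier results of these data known.

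Alternatives were median centring, quantile normalization, filters at the 40th percentile or median on at least 4 arrays, the mean of probe sets, a trend with robust estimates, weights per array, a block for the replicate number, a 1.2-fold null, each array left out and HSC-enriched replicates 3 and 4 left out. The fit was tested on simulated data. Figures were drawn with matplotlib 3.10.9.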

Additional observations from a re-analysis of the deposited data

Results flagged for a closer look

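In 4 of the 166 gene and group combinations examined (64 members and 19 named partners, 4 arrays each), the highest array stood apart from the other 3 by more than Dixon's critical value at 95% allows. Chance alone flags about 1 in 20 groups. Arid3a was at 7.18 on Lin+ replicate 3 against 7.05 to 7.07 on the other Lin+ arrays, a gap far smaller than its fall. Bptf was at 8.53 on Lin+ replicate 1 against 8.35 to 8.37, and Hdac1 at 9.60 on the same array against 9.21 to 9.27. Cecr2 was at 5.58 on HSC-enriched replicate 3 against 4.61 to 4.75 on the other HSC-enriched arrays.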

How the results depend on the processing

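Of the 28 called members, 15 kept their call in all 18 alternatives and 13 lost it in at least 1, 5 uncalled members gained one, and 0 called genes changed sign. Against a 1.2-fold null, 6 members were higher and 9 lower, and 7 partners higher and 5 lower. Higher calls lost there were those of Actl6a, Chd1, Chd1l, Chd3, Chd4, Chd6, Smarcad1 and Smarcc1 (adjusted p = 0.063 to 0.876). Lower calls lost were those of Baz2b, Brd8, Ino80dos, Smarca4 and Smarcd2 (0.055 to 0.414). Of the partners named by the rule, Bcl11a, Chrac1, Ercc6, Ruvbl2 and Ss18 lost theirs. Leaving out 1 array gave 10 to 13 higher and 13 to 15 lower members, 12 to 16 higher and 6 lower partners, and 13 to 15 pairs without overlap. Same-numbered replicates did not deviate together (correlations of -0.152, 0.059, 0.026 and -0.102 for numbers 1 to 4). Whether the numbers pair the samples is not stated in the labels, and these correlations cannot decide it. With the replicate block 11 members were higher and 13 lower, 15 partners higher and 6 lower, and 16 pairs went the same way in every replicate number. The calls of Actl6a (adjusted p = 0.055), Baz2b (0.058), Chd1 (0.0997) and Chd4 (0.069) were lost with this block. Only members that did not pass changed sign, and their reversed differences were at most 0.12 in size. With median centring Mta2 was at -0.0049, and with array weights Arid4b at 0.030. With quantile normalization Arid2 was at 0.020, Arid4a at 0.0047, Arid4b at 0.051, Baz1b at 0.092, Brd2 at 0.020, Ino80d at 0.045 and Smarca5-ps at 0.012. Without HSC-enriched replicates 3 and 4, Arid4b was at 0.075, Baz1b at 0.079, Ino80b at 0.022, Ino80e at 0.058, Mbd3l1 at -0.020 and Smarca5 at -0.120. Leaving out 1 array gave -0.115 to 0.048 for Arid2, -0.052 to 0.122 for Arid3c, -0.202 to 0.084 for Arid4a, -0.073 to 0.084 for Arid4b, -0.048 to 0.027 for Baz1b, -0.206 to 0.014 for Ino80b, -0.167 to 0.0019 for Ino80e, -0.0095 to 0.051 for Mbd3l1, -0.039 to 0.050 for Mta2, -0.030 to 0.185 for Smarca5 and -0.126 to 0.046 for Smarca5-ps. The causes were not tested.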
